A study of Macaca mulatta with 24 samples.

Results

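The 49 genes described here act in mitosis and chromosome segregation. They were picked by symbol from the 35432 genes of the table, and 48 of them had a normalized count of 10 or more in at least 4 of 24 libraries and were tested among 14062 genes. CENPA, the histone H3 variant that marks centromeres, reached that value in 1 library only, with 10.6 as its highest, and was not tested. The members nearest to the limit that passed were KIF18B, SKA1 and SKA3, which reached it in 11, 12 and 14 libraries.

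The RNA came from tracheal and bronchial epithelial cells of 4 adult female rhesus macaques (Macaca mulatta), named S1 to S4, grown on porous inserts and differentiated at an air–liquid interface in medium with retinoic acid. S1 was 5463 days old, S2 2930, S3 2238 and S4 1128, so that age and animal cannot be told apart. Cultures of every animal received diluted whole wood smoke or filtered air for 6 hours a day. Air cultures and smoke cultures were each collected at 3 times, making 6 groups of 1 library per animal: at the end of 1 day of exposure, at the end of 5 days, and 7 days after a 5-day exposure had ended (called recovery below). Whether the libraries of an animal came from separate cultures or separate isolations is not given in the sources used here.

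A cell enters mitosis when CDK1, bound to cyclin B or cyclin A, phosphorylates its substrates, helped by the polo-like and aurora kinases. Condensin and topoisomerase II then compact and untangle the chromosomes, kinetochores built on centromeres attach them to spindle microtubules, and a checkpoint holds back anaphase until all are attached. Kinesin motors and the cytokinesis machinery separate the chromatids and the daughter cells. Most of these genes are transcribed in a wave late in the cell cycle, driven by FOXM1 and the MYBL2–MuvB complex, so that in a tissue their messenger RNAs are known as markers of dividing cells, which in the airway epithelium are mainly basal cells. Some of them, with CDK1 among them, are also used by non-dividing cells that amplify centrioles to become multiciliated.

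Values are normalized counts, scaled by library but not by gene length, so levels are compared between libraries of 1 gene and not between genes. Table totals ran from 11.8 to 15.2 M and the approximate depth from 9.50 to 17.4 M reads. The air library of S1 at 5 days stood apart, with a median correlation of 0.860 to the others, against 0.931 to 0.956 for all other libraries. It had the lowest approximate depth, and within it the members were uneven: ASPM was listed at 0 and KNTC1 at 8.14, whereas CDK1 and SMC4 were at 353 and 820.2. Mitochondrial genes made up 8.49% of its total, against 2.95 to 3.67% in the other 3 air libraries at 5 days. Results are therefore also given without it. The epithelial label was met: the 3 pan-epithelial markers in the table summed to at least 38684 in every library, while the fibroblast genes DCN and LUM, the immune genes PTPRC and MS4A1 and the endothelial gene CDH5 were at 0 in every library of most groups. Other genes of those lists were present: 4 of 7 fibroblast genes (collagens and PDGFRA), 2 of 6 immune genes (CD14 and CD68) and 2 of 4 endothelial genes (VWF and PECAM1) passed the filter, and the list sums ran from 378 to 731, 271 to 976 and 70.3 to 262.

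The summed level of the 49 genes was highest after 1 day in air. Divided by the library total in M, it was 772 ± 219 there (SD, n = 4 animals), followed by 635 ± 215 in smoke at 1 day, 477 ± 186 in smoke at 5 days, 299 ± 11.9 in air at recovery, 291 ± 76.3 in air at 5 days and 224.5 ± 37.3 in smoke at recovery. The ranges of neighbours in this order overlapped. Smoke and air at recovery did not overlap, with 195 to 276 against 285 to 310.2. By gene, the highest group mean was in air at 1 day for 43 of the 48 tested members, and the lowest was in smoke at recovery for 30, in air at 5 days for 12 and in air at recovery for 6. In bulk RNA, fewer dividing cells and less of each message per dividing cell cannot be told apart.

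**Figure D1:**
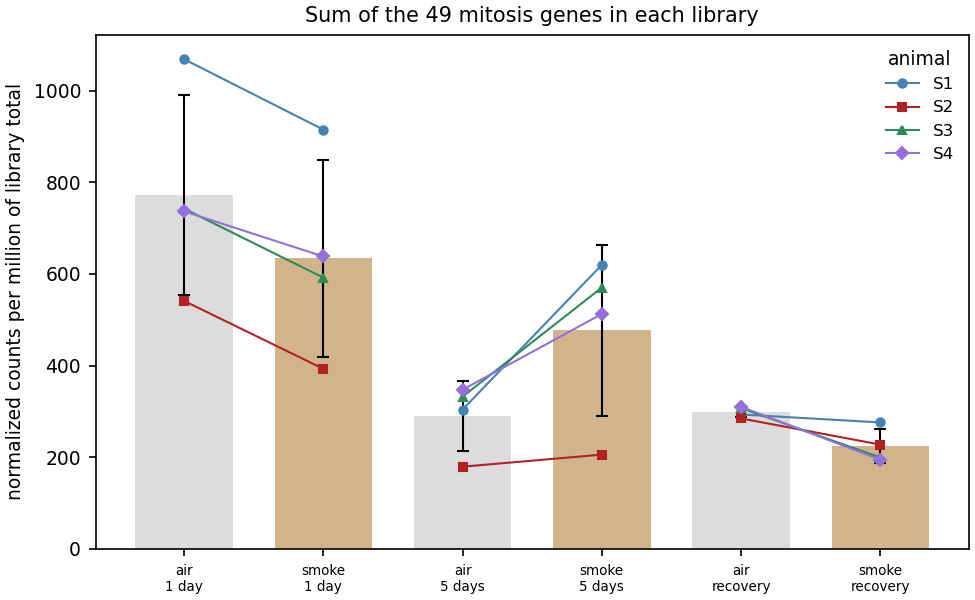
Summed normalized counts of the 49 mitosis genes divided by the library total in M, for 6 groups of 4 animals. Bars are means, error bars SD, points single libraries, and lines join the air and smoke library of an animal at the same time. All 4 animals were lower in smoke than in air at 1 day (S2 541 in air and 393 in smoke) and at recovery, and higher in smoke at 5 days (S1 304 in air and 620.0 in smoke).

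The animals kept their places in part. S1 had the highest sum at 1 day in both groups (1069 in air and 915 in smoke). S2 had the lowest sum at 5 days in both groups (179.5 in air and 206 in smoke), below the other 3 animals, which lay at 304 to 347 in air and 513 to 620.0 in smoke. At recovery in air the 4 animals lay within 285 to 310.2, the narrowest group.

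The members moved together across libraries. Over the 24 libraries, each gene's log2 level correlated with the mean of the other members with r from 0.648 to 0.966 and a median of 0.914. These libraries share animals and exposure times, so this is a description. CENPF, a kinetochore protein, SPAG5 (astrin), a spindle protein, and TPX2, which activates Aurora A on the spindle, had the highest values, 0.966, 0.966 and 0.962. The lowest were SKA1 and SKA3, of the outer kinetochore, with 0.648 and 0.694, then CDK1 with 0.720 and INCENP, the scaffold of the chromosomal passenger complex, with 0.728.

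**Figure D2:**
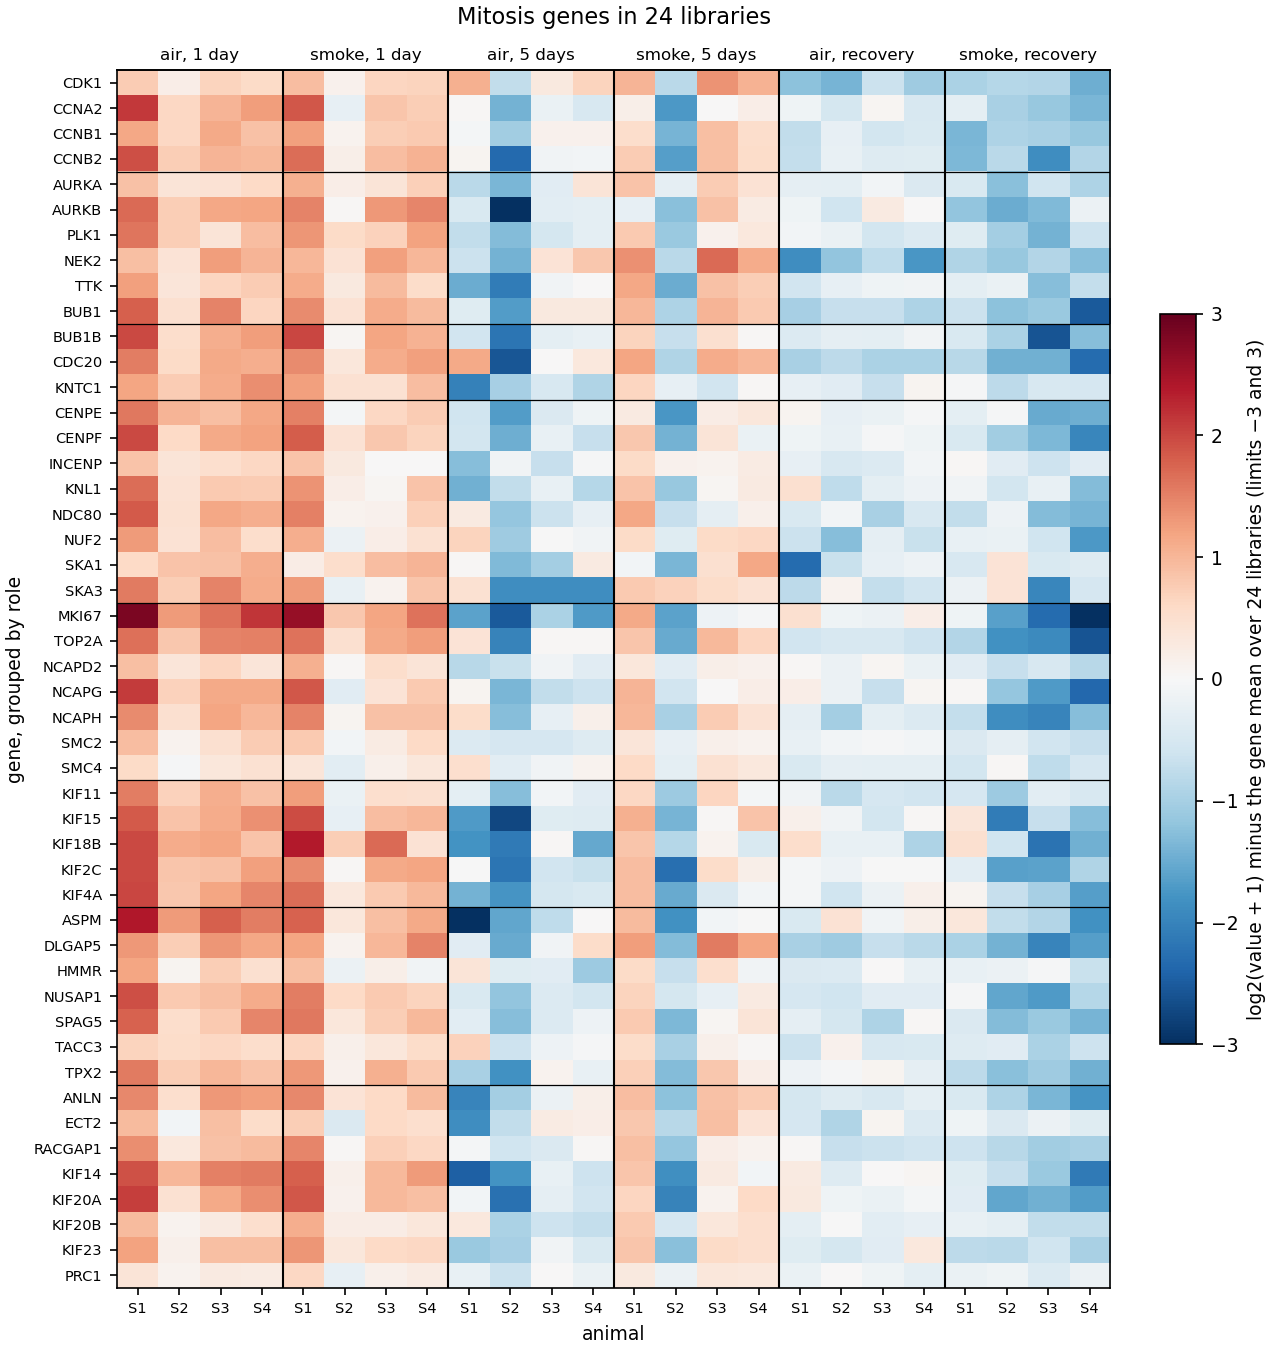
Each row is 1 of the 48 tested genes, ordered by role, and each column 1 of 24 libraries. Colour is log2(value + 1) minus the gene's mean over the libraries, with limits at −3 and 3. Red prevails in both 1-day groups and blue in the recovery groups, and the 5-day smoke libraries of S1, S3 and S4 are redder than their air libraries. S2 at 5 days is blue for most genes in both groups, and CDK1 is red in air at 5 days in S1, S3 and S4.

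In filtered air, nearly the whole set was lower at 5 days than at 1 day. By limma, 45 of 48 members fell and none rose, against 9.52% of all tested genes falling and 19.4% changing in either direction. The median log2 difference was −1.65, against 0.00 over all genes, all 48 were below 0 (49.8% of all genes were), and 46 members were lower in 4 of 4 animals (19.1% of all genes were). For 37 members, all 4 libraries at 5 days lay below all 4 at 1 day (7.25% of all genes). The fall covered 8 of 8 tested genes of the centromere and kinetochore, 8 of 8 of cytokinesis, 6 of 6 mitotic kinases, 5 of 5 spindle motors, 3 of 3 checkpoint genes, 6 of 7 genes of condensin and chromosome structure, 6 of 7 spindle-associated genes and 3 of 4 of CDK1 and its cyclins.

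MKI67, which codes for the Ki-67 protein that coats mitotic chromosomes, showed the largest fall. In air at 1 day its normalized counts were 1317, 449.9, 569.6 and 820.1 for S1 to S4, and at 5 days 59.7, 31.5, 95.0 and 56.5. No library at 5 days came near the lowest at 1 day. The log2 difference was −3.66 ± 0.40 (SE), 12.6-fold lower (adjusted p = 3.59e-05).

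Other roles followed with smaller folds. KIF11, the kinesin that pushes spindle poles apart, went from 260.2, 144, 189 and 164 to 72.4, 35.7, 83.7 and 70.1, a log2 difference of −1.55 ± 0.20 (adjusted p = 0.000110). Its 2 groups did not overlap. KNTC1, part of the complex that brings checkpoint proteins to kinetochores, fell by 2.22 on the log2 scale (adjusted p = 0.000146), CENPF by 1.97 (0.000328) and NUSAP1, which bundles spindle microtubules, by 1.83 (9.34e-05). KIF4A, a chromosome-bound kinesin, fell by 2.41 (0.000338), NCAPD2, a condensin I subunit, by 1.06 (0.000372), and SPAG5 by 1.68 (0.000411).

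Kinases and cytokinesis genes fell as well. AURKB, the catalytic part of the chromosomal passenger complex, went from 38.2 ± 10.8 to 9.30 ± 5.53 (n = 4 each), a log2 difference of −2.21 ± 0.36, and BUB1 from 161 ± 70.1 to 61.0 ± 30.3 (−1.47 ± 0.38). KIF14, a kinesin of the midbody, had −2.76 ± 0.49, ANLN (anillin), which builds the contractile ring, −1.87 ± 0.42, and ECT2, which activates RhoA there, −1.13 ± 0.32. NDC80 changed by −1.58 ± 0.34. All 6 passed, and their groups did not overlap except for ECT2. ASPM, which focuses spindle poles, had 69.9 to 153 at 1 day and 0, 8.78, 16.2 and 28.1 at 5 days, the 0 being the outlying S1 library (−3.55 ± 0.76, adjusted p = 0.00480).

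The 3 members that did not pass were CDK1, SMC4 and TACC3. CDK1, the kinase that starts mitosis, had 286, 193, 268 and 251 in air at 1 day and 353, 101, 207 and 266 at 5 days, a log2 difference of −0.23 ± 0.29 (adjusted p = 0.578). Its values overlapped, and 2 animals were higher and 2 lower. SMC4, a core ATPase of condensin, had −0.28 ± 0.19 (0.278) and was lower in 4 of 4 animals. TACC3, a spindle protein chosen here after its values were seen, had −0.62 ± 0.25 (0.0839). By contrast the cyclin partners of CDK1 fell: CCNA2 from a mean of 143 ± 69.2 to 40.6 ± 15.5 (adjusted p = 0.000568) and CCNB1 from 251 ± 41.7 to 117 ± 37.3 (n = 4 each). CCNB1 changed by −1.15 ± 0.31 (adjusted p = 0.0168).

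This fall in air held when the outlying S1 library was left out (45 called, 44 of them the same members, with a median of −1.51 and 18.7% of all genes called). With no animal term in the model 28 members were called (3.98% of all genes), and 31 were called with each animal left out in turn. In a limma fit to the 8 libraries of the contrast alone, 0 members and 0% of all genes were called, with 46 members at an unadjusted p under 0.05. Basal cell markers moved the same way: 4 of 8 tested fell, among them KRT5 (−0.64 ± 0.15, adjusted p = 0.00798) and TP63 (−1.41 ± 0.36, 0.0129), and the basal sum went from 56503 to 72647 at 1 day to 34932 to 55892 at 5 days. For S1 to S4, TP63 had 960, 671, 742 and 724 at 1 day and 84.8, 413, 495 and 391 at 5 days. The 84.8 was in the outlying S1 library, which enlarges the mean fall. Marker calls without that library are not given here. Among the other cell types' markers, the immune gene CD68 rose (0.97 ± 0.22, adjusted p = 0.00720) and the fibroblast gene COL3A1 fell (−1.52 ± 0.50, 0.0415). Mitochondrial genes made up 5.71 to 8.82% of the totals at 1 day and 2.95 to 3.67% at 5 days apart from S1 (8.49%). The part of these in the result was not tested.

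In smoke, fewer members passed over the same 4 days. From 1 to 5 days, 5 of 48 fell by limma and none rose, against 1.86% of all genes falling (3.48% in either direction). The 5 were MKI67 (−1.72 ± 0.40, adjusted p = 0.0208), CCNA2 (−1.13 ± 0.28, 0.0337), NUSAP1 (−0.86 ± 0.23, 0.0443), PLK1, the polo-like kinase (−0.92 ± 0.25, 0.0473), and SPAG5 (−0.94 ± 0.26, 0.0485). The median difference was −0.56, 45 were below 0 (48.9% of all genes), and 29 members were lower in 4 of 4 animals (18.4% of all genes). MKI67 had 1135, 324, 424 and 573 at 1 day and 410.4, 59.8, 167 and 179 at 5 days, so that the S1 library at 5 days lay above the S2 library at 1 day. The S1 air library at 5 days enters here only through the shared spread, and leaving it out gave 16 members (18.9% of all genes). Without animal S1 the count was 11 (17.4% of all genes), and without S2, S3 or S4 it was 0 (0.669%, 0.303% and 0.612%). With no animal term it was also 0 (0.284% of all genes), with 13 members at an unadjusted p under 0.05.

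For 40 members the fall passed in air and not in smoke, but that count does not test the difference. The test is the change of the smoke effect from 1 to 5 days, and there 0 of 48 members passed by limma (0.0427% of all genes did), with 26 at an unadjusted p under 0.05, all of them upward. The median change was 0.97, all 48 were above 0 (50.9% of all genes), and 39 were above 0 in 4 of 4 animals (10.5% of all genes). The within-animal medians were 1.22, 0.73, 1.02 and 0.82 for S1 to S4. Scaling to library totals moved the median of all genes in this contrast by over 0.1, and the members' median with it, to 1.12. SKA3 (2.62 ± 0.65, adjusted p = 0.224) and KIF11 (1.07 ± 0.28, 0.240) had the smallest p. With the outlying S1 library left out, SKA3 alone of the members passed (3.11, adjusted p = 0.0196; 0.307% of all genes called).

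After 1 day the smoke and air cultures did not differ in any member by the test. Of 48 members 0 passed by limma, against 0.0782% of all genes, and 1, KIF11, had an unadjusted p under 0.05. The median difference was −0.23, against 0.00 for all genes. It was below 0 for 42 members (49.2% of all genes), and 20 were lower in smoke in 4 of 4 animals (15.2% of all genes). KIF11 had 260.2, 144, 189 and 164 in air and 214, 77.0, 125 and 125 in smoke, lower in each animal but with overlapping groups (−0.54 ± 0.20, adjusted p = 0.899). NCAPG, a condensin I subunit, had −0.59 ± 0.30, HMMR, a spindle assembly factor, −0.43 ± 0.24, and NDC80, which binds microtubules at the kinetochore, −0.52 ± 0.34. A fit to these 8 libraries alone called 8 members lower, and 9.11% of all genes in either direction.

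After 5 days the difference had the other sign. The median over the members was 0.76, against 0.01 over all genes, 47 of 48 were above 0 (51.7% of all genes), and 30 were higher in smoke in 4 of 4 animals (9.54% of all genes). By limma 1 member passed, against 0.889% of all genes called higher and 1.69% called in either direction, and 30 had an unadjusted p under 0.05. The within-animal medians were 1.02, 0.26, 0.69 and 0.55 for S1 to S4. The mitotic kinases had a median of 0.96, the checkpoint genes 0.94, cytokinesis 0.81, spindle motors 0.77, spindle-associated genes 0.69, kinetochore 0.59, condensin 0.57 and CDK1 with its cyclins 0.34.

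**Figure D3:**
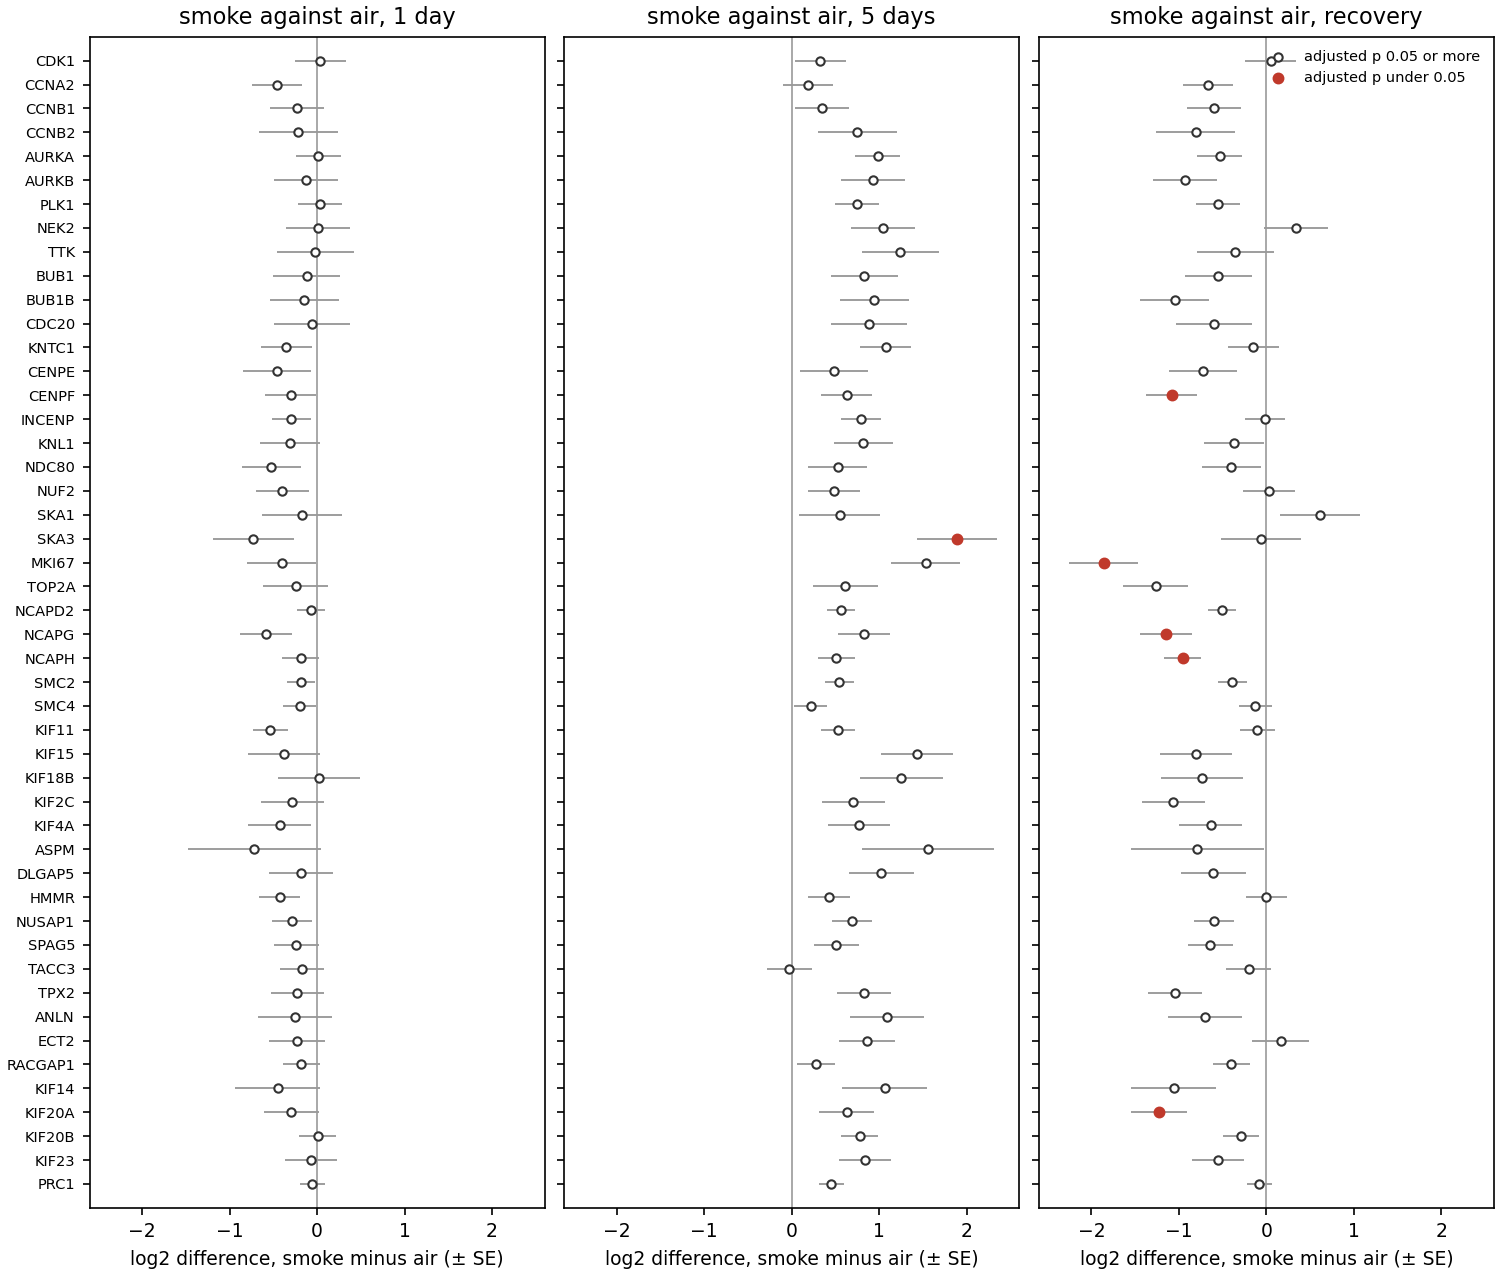
Log2 difference of smoke minus air for each of the 48 tested genes at 3 times, with SE, from the limma fit. Filled points have an adjusted p under 0.05. Points lie mostly left of 0 at 1 day (42 of 48), right of 0 at 5 days (47) and left of 0 at recovery (42).

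The member that passed at 5 days was SKA3, which keeps kinetochores attached to shortening microtubules. It had 14.5, 2.10, 2.07 and 2.09 in air and 18.3, 17.0, 15.3 and 14.2 in smoke. The lowest smoke value lay just under the S1 air value, and the other 3 air values were about 2 steps of their library, a step being taken as the worth of 1 read. The log2 difference was 1.89 ± 0.46 (adjusted p = 0.0428), and without the S1 air library it was 2.38 (0.00298). With no animal term it did not pass (adjusted p = 0.204), nor with S2, S3 or S4 left out, when 0.144%, 0.0433% and 0.0648% of all genes passed. Without animal S1, 2 members passed (6.16% of all genes). Under a filter of 20 or more in at least 12 libraries SKA3 was not tested, and MKI67 was the member that passed.

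Several members came close to the limit. MKI67 had 59.7, 31.5, 95.0 and 56.5 in air and 410.4, 59.8, 167 and 179 in smoke, higher in each animal, with the S2 smoke value inside the air range (1.53 ± 0.40, adjusted p = 0.0540). AURKA, the spindle pole kinase, had 17.7, 11.6, 24.8 and 41.8 in air and 58.5, 26.0, 54.6 and 43.3 in smoke (0.98 ± 0.26, 0.0588). KIF20B, a kinesin of late cytokinesis, had 0.78 ± 0.21 (0.0624) and passed without the S1 air library (0.93, adjusted p = 0.0115). KNTC1 (1.07 ± 0.30), NCAPD2 (0.57 ± 0.16), INCENP (0.80 ± 0.23) and the kinesin KIF15 (1.43 ± 0.41) had adjusted p from 0.0662 to 0.0775.

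Of the remaining kinases and cytokinesis genes none passed at 5 days, with positive differences throughout. PLK1 had 0.75 ± 0.25, AURKB 0.93 ± 0.36, BUB1 0.83 ± 0.38 and NEK2 1.05 ± 0.37, each higher in 4 of 4 animals. ANLN (1.09 ± 0.42), ECT2 (0.86 ± 0.32) and KIF14 (1.06 ± 0.49) were higher in 3 of 4. ASPM had 1.56 ± 0.76 but was higher in 2 animals only, with S1 at 0 in air and 55.2 in smoke. Adjusted p for these 8 ran from 0.122 to 0.283.

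In 2 members all smoke values lay above all air values at 5 days (1.81% of all genes): INCENP and SMC2, the partner of SMC4 in condensin. INCENP had 46.7, 106, 70.2 and 111 in air and 171, 124, 124 and 137 in smoke. SMC2 had 112, 105, 105 and 114 in air and 192, 126, 165 and 161 in smoke, with 0.55 ± 0.16 (adjusted p = 0.0848). Both mean differences were larger than the SD of either group, yet neither passed after adjustment over all genes.

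Mean library depth moved with these values: the mean approximate depth was 11.8 M reads in air and 14.4 M in smoke at 5 days, 15.0 and 12.4 M at 1 day, and 12.7 and 11.9 M at recovery. Within animals this did not hold throughout at recovery. There S1 had 12.2 M in air and 10.1 M in smoke and S4 13.4 and 10.8 M, but S2 had 12.0 and 13.5 M and S3 13.26 and 13.30 M. Regulators of multiciliated cell formation also lay higher in smoke at 5 days. Of 13 tested 11 were above 0 and none passed (5 at an unadjusted p under 0.05), with a median of 0.70, and their within-animal medians were 1.23, 0.11, 0.67 and 0.37. MCIDAS, which starts that program, had 10.5 to 46.0 in air and 12.0 to 99.5 in smoke (1.13 ± 0.48, adjusted p = 0.220). Basal markers had the other sign at 5 days: 6 of 8 tested were below 0 and none passed, with a median of −0.14. The part of depth or of these genes in the result was not tested. Without the S1 air library the members' median was 0.57, and 2 were called against 6.33% of all genes. With no animal term 0 were called (0.0711% of all genes), with 19 at an unadjusted p under 0.05.

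At recovery, members were lower in the cultures that had been exposed to smoke. By limma 5 of 48 fell and none rose, against 2.28% of all genes falling (3.41% in either direction). The median was −0.57, 42 were below 0 (48.8% of all genes), and 23 were lower in 4 of 4 animals (19.4% of all genes). The within-animal medians were −0.13, −0.44, −0.54 and −0.75 for S1 to S4. In 12 members all smoke values lay below all air values (4.37% of all genes): CCNB1, CCNB2, AURKA, BUB1B, CENPF, TOP2A, NCAPD2, SMC2, KIF2C, TPX2, KIF20A and KIF23.

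Of the 5 that passed, 3 belong to chromosome structure. MKI67 had 257, 168, 164 and 213 in air and 169.9, 58.9, 36.8 and 21.8 in smoke, lower in each animal, with only the S1 smoke value inside the air range (−1.86 ± 0.40, adjusted p = 0.0124). NCAPH, the kleisin that closes the condensin I ring, had 76.9, 45.2, 75.2 and 69.2 in air and 56.3, 24.6, 22.8 and 37.6 in smoke (−0.96 ± 0.21, 0.0167). NCAPG fell by 1.14 on the log2 scale, from 41.2 ± 10.4 to 21.6 ± 16.9 (n = 4 each, adjusted p = 0.0387).

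The other 2 act at the kinetochore and in cytokinesis. CENPF had 154, 144, 164 and 154 in air and 121, 80.6, 65.1 and 42.5 in smoke, so that the groups were apart (−1.08 ± 0.29, adjusted p = 0.0454). KIF20A, a kinesin of the central spindle, had 102, 75.5, 72.2 and 79.9 in air and 65.1, 27.5, 30.2 and 25.3 in smoke, again apart (−1.23 ± 0.32, 0.0383). TOP2A, the topoisomerase that untangles sister chromatids, had −1.26 ± 0.37 (0.0689) and TPX2 −1.04 ± 0.31 (0.0693). CDK1 had 0.05 ± 0.29, with 79.7 ± 19.0 in air and 82.1 ± 14.9 in smoke, and INCENP means were 93.4 ± 12.0 and 93.1 ± 18.2.

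Most other members at recovery had negative differences that did not pass. PLK1 had −0.55 ± 0.25, AURKB −0.93 ± 0.36, KIF14 −1.06 ± 0.49 and SPAG5 −0.64 ± 0.26, each lower in 4 of 4 animals. CCNB2, a B-type cyclin, had 22.7 ± 3.17 in air and 13.0 ± 4.36 in smoke (n = 4 each), groups that did not overlap, with a log2 difference of −0.81 ± 0.45 (adjusted p = 0.370). ECT2 had a positive difference, 0.16 ± 0.32, and SMC4 −0.13 ± 0.19.

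The calls at recovery depended on the model and on single animals. With the outlying S1 library left out, 9 of 48 passed, including all 5, but 18.8% of all genes then passed too, a share near that of the members. Without animal S1, 12 passed (20.7% of all genes), without S2, 1 (0.295%), and without S3 or S4, 0 (0.238% and 0.158%). With no animal term 0 passed (0.242% of all genes), with 10 at an unadjusted p under 0.05. Basal cell markers were lower in the same comparison: 4 of 8 tested fell, KRT5 by 1.22 on the log2 scale (adjusted p = 0.000239), and the basal sum was 58264 to 69484 in air and 22218 to 42133 in smoke. Their part in the result was not tested.

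**Figure D4:**
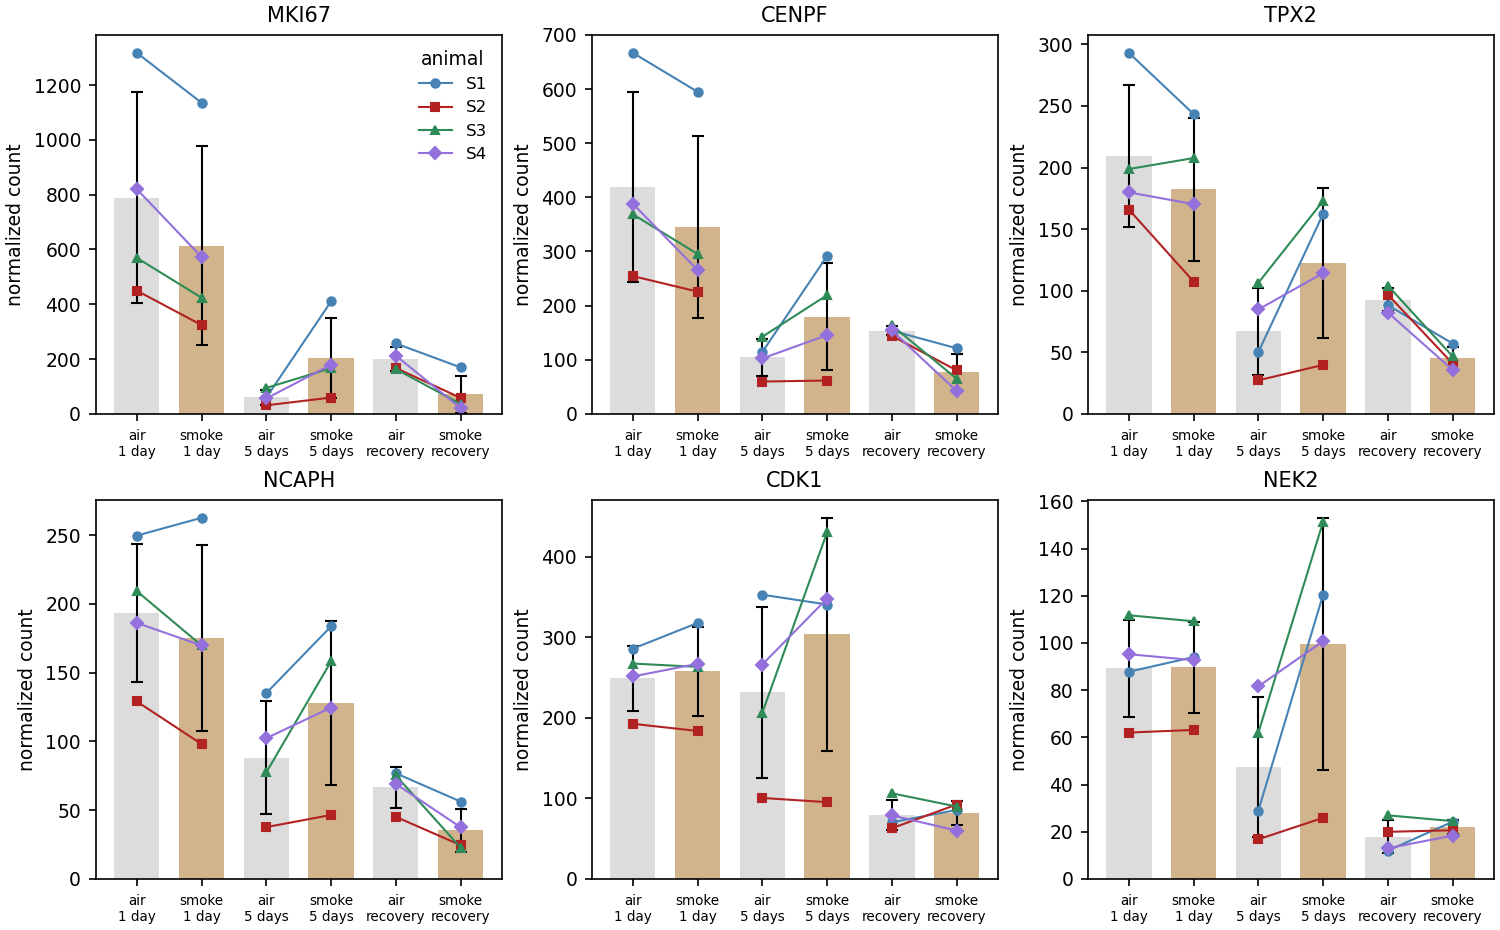
Normalized counts of 6 members in 6 groups of 4 animals, each axis from 0. Bars are means, error bars SD, and lines join the air and smoke library of an animal. MKI67, CENPF, TPX2 and NCAPH drop in air from 1 to 5 days (MKI67 from a mean of 789 to 60.7), whereas CDK1 stays at a mean of 232 at 5 days in air, and CDK1 and NEK2 are at means of 79.7 and 18.0 in air at recovery.

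The difference between smoke and air changed from 5 days to recovery in 12 of 48 members by limma, all downward, against 2.14% of all genes downward (3.56% in either direction). The median change was −1.34, 47 were below 0 (50.6% of all genes), and 34 were below 0 in 4 of 4 animals (13.9% of all genes). Chromosome structure held 5 of the 12: MKI67 (−3.39 ± 0.56, adjusted p = 0.00268), NCAPH (−1.47 ± 0.30, 0.0116), NCAPD2 (−1.08 ± 0.22, 0.0122), NCAPG (−1.97 ± 0.42, 0.0138) and SMC2 (−0.93 ± 0.23, 0.0289). The others were the kinases AURKA and PLK1, the spindle proteins TPX2 (−1.87 ± 0.43, 0.0226) and NUSAP1, the kinesins KIF15 and KIF20A, and CENPF, with adjusted p up to 0.0471.

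The sign of the difference between smoke and air was negative at 1 day, positive at 5 days and negative at recovery in 37 of the 48 members. This count includes differences that did not pass, and its share over all genes was not computed. With 42, 47 and 42 members of these signs at the 3 times, most members had to show the pattern. For the change from 5 days to recovery, 19 members passed with the outlying S1 library left out, among them all 12 (11.3% of all genes). Leaving out animals S1 to S4 in turn gave 17, 9, 1 and 0 members, against 11.3%, 0.662%, 0.448% and 0.0072% of all genes. Basal markers changed in the same direction, with a median of −0.90, 7 of 8 below 0 and 2 called lower, KRT5 and ITGB4. Their part in the result was not tested. The fit with no animal term gave 0 (0.348% of all genes), with 29 at an unadjusted p under 0.05.

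Within air, few members passed between 5 days and recovery, and CDK1 was among those that fell. The members' log2 differences ran from −1.42 to 1.81. By limma 5 of 48 passed against 28.4% of all genes: 3 higher (14.2% of all genes) and 2 lower (14.1%). The median was 0.27, with 34 above 0 (51.3% of all genes), 12 higher in 4 of 4 animals (20.4%) and 2 lower in 4 of 4 (19.7%). The within-animal medians were 0.13, 0.92, −0.04 and −0.01 for S1 to S4. Without S2 the median was 0.15 and the calls turned to 1 higher and 7 lower (16% of all genes). CDK1 had 353, 101, 207 and 266 at 5 days and 70.4, 63.0, 106 and 79.0 at recovery, lower in each animal (−1.42 ± 0.29, adjusted p = 0.00205). NEK2, a centrosomal kinase, also fell (−1.18 ± 0.37, 0.0243), although it was lower in 3 of 4 animals only. MKI67 rose from 60.7 ± 26.1 to 200.3 ± 44.0 (n = 4 each), with all recovery values above all 5-day values, as in 3 members and 8.29% of all genes (1.78 ± 0.40, 0.00354). KIF15 (1.18 ± 0.41) and KNTC1 (0.81 ± 0.30) rose, but neither passed with the outlying S1 library left out (adjusted p = 0.145 and 0.216). Only CDK1 and MKI67 passed with no animal term, where NEK2 had an adjusted p of 0.0989, and only these 2 passed with each animal left out in turn. A fit to the 8 libraries alone called 0 members, with 7 at an unadjusted p under 0.05.

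Regulators of multiciliated cell formation and cell type markers were also followed over the same 2 intervals in air. From 5 days to recovery 6 of the 13 regulators fell and none rose, while 14.1% of all genes fell. MCIDAS went from 10.5 to 46.0 at 5 days to 3.27 to 6.68 at recovery. Of 8 tested secretory markers 4 also fell and none rose. Of 8 tested basal markers 5 rose and 1 fell, with a median of 0.69, while 14.2% of all genes rose. From 1 to 5 days in air, when 45 members fell, none of the 13 regulators fell and 1, FOXJ1, rose. Over that interval 19.4% of all genes were called in either direction. No test compared CDK1 with these genes.

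In cultures that had received smoke, 25 of 48 members fell by limma from 5 days to recovery and none rose, against 4.47% of all genes falling (8.06% in either direction). All 48 were below 0 (48.5% of all genes), with a median of −0.96, and 18 were lower in 4 of 4 animals (18.4% of all genes). All 7 genes of condensin and chromosome structure fell, with 4 of 6 kinases, 4 of 7 spindle-associated genes, 4 of 8 cytokinesis genes, 2 of 4 of CDK1 and its cyclins, 2 of 3 checkpoint genes, 2 of 8 kinetochore genes and 0 of 5 spindle motors. Of the 25, 23 had also fallen in air from 1 to 5 days, where 45 of 48 fell, so such an overlap does not link the 2 falls. Of the 13 regulators of multiciliated cell formation 5 also fell, and of the 8 basal markers 2 fell, KRT5 and DLK2, and 1 rose, COL17A1. Their part in the result was not tested.

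CDK1 was among them. It had 341, 95.4, 431 and 348 at 5 days and 85.7, 92.4, 90.0 and 60.1 at recovery, with all recovery values below all 5-day values, as in 6 members in all and in 4.52% of all genes (−1.70 ± 0.29, adjusted p = 0.00149). NCAPH went from 184, 46.5, 158 and 125 to 56.3, 24.6, 22.8 and 37.6, lower in each animal (−1.76 ± 0.21, 9.38e-05). DLGAP5, which stabilizes kinetochore fibres, fell by 2.17 on the log2 scale (0.00145), CDC20, the activator of the anaphase-promoting complex, by 2.11 (0.00572), TOP2A by 2.04 (0.00239), NEK2 by 1.89 (0.00383) and the checkpoint kinase BUB1 by 1.84 (0.00565).

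S2 did not share this fall at the level of the set. The within-animal medians were −1.12, 0.13, −1.42 and −1.55 for S1 to S4, S2 having started low at 5 days. Without S2, 35 members passed (4.84% of all genes), without S1, 27 (22.8%), and without S3 or S4, 1 and 2 (0.932% and 1.15%). The fit with no animal term called 2 (0.512% of all genes), with 30 at an unadjusted p under 0.05, and leaving out the outlying S1 library gave 35 (27.4% of all genes). Of the 25 members, 1, NCAPH, passed with each animal left out in turn.

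Other mitotic genes outside the 49 (67 tested) mostly had the signs of the members in smoke against air. At 1 day 50 were below 0, with a median of −0.12, and at 5 days 58 were above 0, with 0.55. At recovery 44 were below 0 and 23 above, with −0.20. In air from 1 to 5 days 40 fell and 1 rose, while 9.52% of all genes fell. In smoke from 5 days to recovery 18 fell and none rose, while 4.47% of all genes fell. Between smoke and air at 5 days 5 rose and none fell, against 0.889% of all genes called higher. Among the 5 were TRIP13, an ATPase of the checkpoint (1.09 ± 0.21, adjusted p = 0.0149), and the phosphatase CDC25B, which activates CDK1 (0.97 ± 0.21, 0.0248). CDCA3 (1.22 ± 0.29, 0.0368) and the histone kinase HASPIN (1.09 ± 0.26, 0.0408) were also among them. Calls in this paragraph are from the fit with all 24 libraries and the animal term only. At 5 days, 0.0711% of all genes passed with no animal term. Without S2, S3 or S4, 0.144%, 0.0433% and 0.0648% of all genes passed. Whether the genes named here passed in those fits is not given. At recovery 1 passed, CDC25B, lower in smoke (−0.98 ± 0.21, 0.0128), while 2.28% of all genes were called lower. Against the sign of most members, CDC25B was above 0 at 1 day (0.70 ± 0.21, adjusted p = 0.564). CENPM was above 0 at recovery (0.97 ± 0.28, 0.0661). PTTG1 (securin), which holds separase inactive, had −0.67 ± 0.19 at recovery (0.0512), and BIRC5 (survivin), a partner of INCENP, −0.79 ± 0.32 (0.202). Cohesin (11 tested) and the anaphase-promoting complex (14 tested) had 0 genes called in smoke against air at all 3 times by limma, where 0.0782% to 3.41% of all genes were called. At an unadjusted p under 0.05 there were 0, 1 and 0 cohesin genes and 0, 4 and 2 of the complex at 1 day, 5 days and recovery. In air from 1 to 5 days 5 of the 11 cohesin genes fell and all 11 were below 0, with a median of −0.52, while 1 gene of the anaphase-promoting complex rose and 1 fell.

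FOXM1, the forkhead factor that drives this gene set, had the sign of the members' medians in the comparisons given here. Its normalized counts were 85.6 to 212 in air at 1 day and 5.75 to 42.0 at 5 days, with groups apart (−2.51 ± 0.36, adjusted p = 0.000300). Between smoke and air it had 0.90 ± 0.36 (0.198) at 5 days and −1.11 ± 0.36 (0.102) at recovery. Neither passed, whereas the change between these differences did (−2.01 ± 0.51, 0.0354). At recovery S1 went against the sign, with 30.8 in air and 43.1 in smoke, while S2, S3 and S4 were lower in smoke. With no animal term 0.348% of all genes passed in this change, and without S3 or S4 0.448% and 0.0072%. Whether FOXM1 passed in those fits is not given here. MYBL2 had 0.10 ± 0.38 at 5 days and −0.60 ± 0.38 at recovery.

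Among regulators of the G1 phase, the D-type cyclin CCND1 was lower in smoke at 5 days (−0.47 ± 0.10, adjusted p = 0.0225), opposite in sign to the members. The CDK inhibitor CDKN1B (p27) was higher in smoke at recovery (0.40 ± 0.09, 0.0173), with 324 to 390 in air and 415 to 527 in smoke. Both calls are from the fit with all 24 libraries and the animal term. With no animal term 0.0711% of all genes passed at 5 days and 0.242% at recovery. Whether CCND1 and CDKN1B passed there, or without the outlying S1 library, is not given here. CDKN1A (p21) did not pass at any of the 3 times, with −0.28 ± 0.14 at 5 days and −0.25 ± 0.14 at recovery.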

How the data were processed

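For every gene and library the deposited table gives 1 normalized value, a signal that the authors derived from reads. Per the submitters' processing notes, FastQC, Trim Galore, Bowtie2 and RSEM were used; the sources used here give no versions, genome build, annotation or normalization method. The values are not whole and the median ratio to the geometric mean is 1.01 in every library. In each library 80.0 to 83.1% of the low values fell, within 0.1, on whole multiples of a step (0.726 to 1.60). Reads were therefore not recovered and no count model was used. The error given with a group mean is the SD over animals. The error given with a difference is the SE from the limma fit. That fit has animal as a block and moderated variances, so this SE is not the spread between animals.

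Values were analysed as log2(value + 1) with limma 3.58.1 (R 4.3.3): 6 group means with animal as an additive block, moderated variances with a mean trend, genes with 10 or more in at least 4 libraries (14062), 9 contrasts, two-sided, Benjamini-Hochberg over all genes tested, called at an adjusted p under 0.05. Fold changes of low genes are understated by the added 1. Each animal gave 1 library to each group by label. Over all genes tested, deviations from group means correlated by 0.303 to 0.804 within an animal (60 pairs) and by −0.443 to 0.0149 between animals (180 pairs). Over the members alone these ranges overlapped. They were −0.311 to 0.771 within an animal (median 0.269) and −0.545 to 0.423 between animals (median −0.106). Deviations from a group mean sum to 0 over the animals of the group, which by itself pushes correlations between animals below 0. The negative values are therefore no separate sign of pairing. The fit was tested on simulated data.

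The members, roles and other lists were chosen with earlier results of these data known, so lists are described by counts and medians with no test. Named members mostly come from the 8 with the smallest p in each contrast and from a list of 22. Not all of them are given for every contrast. Of the other listed genes, some of those with the smallest p in each smoke contrast are named, and some others. Alternatives changed the block, the libraries, the scaling, the added constant, the filter and the threshold. No protein, promoter or genome sequence was used here.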

Additional observations from a re-analysis of the deposited data

Results flagged for a closer look

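In 228 sets of 4 libraries (37 named members and the summed level, in each of 6 groups), 13 had an extreme library whose gap to the next, as a share of the range, exceeded Dixon's 95% limit. Chance alone marks about 1 in 20 such sets. S2 was the low library in 6 of them: at 5 days in smoke ANLN (66.9), CCNA2 (16.0), CDC20 (69.0) and NUF2 (28.9), and at 5 days in air AURKB (1.05) and CCNB2 (5.31). S1 was the high library in CCNB2 in air at 1 day (120.3), KIF20B (261) and NUSAP1 (151) in smoke at 1 day, SKA3 in air at 5 days (14.5) and KIF20A in smoke at recovery (65.1), and the low library in SMC4 in air at recovery (423). S4 was the high library for AURKB in smoke at recovery (13.8).

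The difference between smoke and air was itself different at recovery and at 5 days in 12 members by limma's test of that change. On the log2 scale the changes were −3.39 for MKI67, −2.24 for KIF15, −1.97 for NCAPG, −1.87 for TPX2, −1.86 for KIF20A, −1.71 for CENPF, −1.52 for AURKA, −1.47 for NCAPH, −1.30 for PLK1, −1.28 for NUSAP1, −1.08 for NCAPD2 and −0.93 for SMC2, each in the same direction in 4 of 4 animals. None of the 12 passed with no animal term in the model, where MKI67 had an adjusted p of 0.0689.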

How the results depend on the processing

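No named gene turned its sign past the threshold in any of the alternatives: of 3960 values for single genes, 334 lost their call, 99 gained one and 3527 stayed on their side. Counts of members called depended on the setting more than medians did: 54 of 117 counts moved by over 1.5 times and 2 turned. Of 108 medians, 1 moved by more than the SD over animals, that at 1 day, which was −0.31 with scaling to library totals; by ratio, the median in air from 5 days to recovery moved most, from 0.27 to 0.15 without S2. With no replicate block the counts were 0 in smoke against air at 5 days and at recovery, 0 in the change from 5 days to recovery and in smoke from 1 to 5 days, 28 and 2 in air over the earlier and the later interval, and 2 in smoke over the later one; together with leaving out the 5-day air library of S1 they were 0 at recovery, 1 in its change, 28 and 0 in air, and 0 and 11 in smoke. With that library left out and the block kept, 2 members passed at 5 days, 9 at recovery, 1 and 19 in the changes to 5 days and to recovery, and 16 in smoke from 1 to 5 days. Leaving out each animal gave 0 to 2 at 5 days, 0 to 12 at recovery, 0 to 17 in its change, 0 to 11 in smoke from 1 to 5 days, 1 to 35 in smoke from 5 days to recovery, and 2 to 8 in air from 5 days to recovery; 8 there, without S2, were 1 higher and 7 lower, against 3 and 2. With only the libraries of the contrast the counts were 8 at 1 day, 0 at 5 days, 12 at recovery, 1 in its change, 0 and 0 in air over the 2 intervals, and 22 in smoke from 1 to 5 days; these fits have fewer samples. With no filter they were 0 at 5 days, 2 at recovery, 3 in air from 5 days to recovery (1 higher and 2 lower) and 1 in smoke from 1 to 5 days. Scaling to library totals gave 3 at 5 days and 2 in smoke from 1 to 5 days, an added constant of 5 gave 2 and 10, and an adjusted p under 0.1 gave 9 at 5 days, 8 at recovery, 22 in its change, 13 in air from 5 days to recovery and 10 in smoke from 1 to 5 days. Where no other reason is named, the cause was not tested. Depth in reads is approximate, and values of a few steps, such as SKA3 in air at 5 days, rest on few reads.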
